A study of Mus musculus with 8 samples.

Results

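The genes described here are 9 complement components and regulators in the mouse heart: C1qa, C1qb, C1qc, C1s1, C4b, C3, Serping1, Cd55 and Clu. They were chosen by name, through their GENCODE M21 symbols and the Ensembl identifiers of the count tables, and all 9 were found among 141239 counted features. All 9 also passed the filter on low counts, as did 26717 features in all. RNA was sequenced from hearts of mice aged 2 week on a strain given only as Mixed, all of them with the genotype label Lmna-/-, a knockout of the nuclear filament proteins lamin A and C. Replicates 6, 7 and 8 (n = 3) are Lmna-/- hearts with no vector in their labels and are called untreated. Replicates 1 to 5 (n = 5) are labelled Lmna-/-:AAV9 Lmna WT, called AAV9-LMNA, and received the adeno-associated viral vector AAV9, which reaches heart muscle well, with wild-type Lmna. The sources used here do not give the vector's promoter, its dose, its route or the sex of the mice. Neither wild-type hearts nor hearts given an empty or control vector were analysed here, so an effect of Lmna and one of AAV9 cannot be told apart. Nothing in the labels ties each library to its own animal, so the p-values reflect library-to-library spread, part of which may be technical.

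Complement is a cascade of plasma and tissue proteins that tags cells and particles for removal. In the classical pathway the recognition protein C1q, built of A, B and C chains, carries the proteases C1r and C1s, which cleave C4 and C2. The resulting enzyme cleaves C3, whose fragments coat surfaces and lead on to the membrane attack complex of C5 to C9. C1 inhibitor (Serping1), decay-accelerating factor (Cd55) and clusterin (Clu) restrain successive steps. In the heart, C1q is made mainly by macrophages, while the liver is the main source of most circulating components. Complement can also respond to AAV capsids.

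No member passed the test between AAV9-LMNA and untreated hearts, and the differences were within the spread between libraries. The AAV9-LMNA libraries lay close together for C1qa, C1qb, C1qc, C4b and Serping1, within or just above the untreated range. That range was wide, with replicate 6 low for 8 of 9 members and replicate 7 the highest for 6 of 9. Of the 9 members 0 were called by edgeR at an adjusted p under 0.05, 0 had an unadjusted p under 0.05 there, and 0 were called by DESeq2 or by limma-voom. At an unadjusted p under 0.05 DESeq2 had 1 (C1qa) and limma-voom 2 (C1qa and C1qc), the nearest to the threshold being C1qa in limma-voom (log2 fold change 0.98, adjusted p = 0.0548). Over all features tested, 25.7% were called in either direction, 2843 higher in AAV9-LMNA (10.6%) and 4015 lower. The fitted log2 fold change, AAV9-LMNA over untreated, was above 0 for 8 of 9 members. Its median over the members was 0.28, against -0.03 over all features tested and 0.22 over coding genes with a mean log2 CPM above 1. CPM is the count of a gene scaled to the size of its library. Both groups' ranges overlapped for all 9 members, while they did not overlap for 29.9% of all features tested.

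Counts on features ran from 21439956 to 26492443 per library, so a gene at 1 CPM rested on a little over 20 reads. Lmna measured 46.4, 68.7 and 32.3 CPM in untreated replicates 6, 7 and 8, and 393, 227, 325, 312 and 747 CPM in AAV9-LMNA replicates 1 to 5, with no overlap. Its log2 fold change was 3.03 (SE 0.46, edgeR adjusted p = 0.00486). The untreated libraries thus held 711 to 1610 Lmna counts each under their knockout label, and counts for the whole gene do not show whether a deleted part was covered. The sources used here do not say whether the vector carries the mouse or the human sequence, so how many of its reads were counted to mouse Lmna is not known, and reads of the vector and of the mouse gene cannot be told apart in these counts. Reads outside every feature made up 24.7% of all reads on, outside or shared between features in untreated replicate 6, 16.8 and 18.4% in the other untreated libraries and 12.1 to 12.8% in AAV9-LMNA. Untreated replicate 6 also stood apart in its markers. The summed CPM of 8 heart muscle markers was 155989 there and 90736 to 136205 in the other libraries. That sum rested mostly on Ttn (87056 CPM there) and Myh6 (33892 CPM there), and the markers did not move as one. Ttn, Myh6, Tnnt2 and Ryr2 were highest of all libraries there, and Pln and Tnni3 lay between. Actc1 (5267 CPM) and Myl2 (5347 CPM) were the lowest of all libraries there. The 11 fibroblast markers summed to 1730 CPM in replicate 6 and 4638 to 7302 in the others. The part of these differences in the complement values was not tested, but the members' values without that library are given below.

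The chains of C1q lie side by side on the minus strand of chromosome 4 (GRCm38): C1qb at chr4:136880129-136886187, C1qc at chr4:136889804-136893065 and C1qa at chr4:136895917-136898803. C1qa measured 24.5, 101 and 37.4 CPM in untreated replicates 6, 7 and 8, and 73.8, 93.8, 98.0, 89.2 and 93.2 CPM in AAV9-LMNA replicates 1 to 5. C1qb measured 15.8, 89.6 and 25.5 CPM untreated and 53.6, 55.7, 53.8, 51.2 and 51.4 CPM with the vector. C1qc measured 17.8, 78.8 and 23.2 CPM untreated and 58.9, 64.1, 63.0, 59.2 and 59.6 CPM with the vector. For each chain untreated replicate 7 was above every AAV9-LMNA library and untreated replicates 6 and 8 were below every one, so the untreated libraries enclosed the treated ones.

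The highest untreated library was 4.11, 5.68 and 4.43 times the lowest for C1qa, C1qb and C1qc, against 1.33, 1.09 and 1.09 times among the AAV9-LMNA libraries. C1qa averaged 54.2 ± 40.7 CPM (SD, n = 3) untreated and 89.6 ± 9.39 CPM (SD, n = 5) with the vector. Its log2 fold change was 0.73 (SE 0.40, 95% interval -0.20 to 1.66, edgeR adjusted p = 0.21). For C1qb the log2 fold change was 0.28 (SE 0.49, 95% interval -0.85 to 1.42, edgeR adjusted p = 0.686), and for C1qc 0.61 (SE 0.44, 95% interval -0.41 to 1.62, edgeR adjusted p = 0.325). Each of these intervals holds both a fall and a rise.

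The calls depended on which untreated libraries were kept. Leaving out any single library kept C1qa (0.38 to 1.55) and C1qc (0.26 to 1.59) above 0, while C1qb ran from -0.11 to 1.38. The lowest values, 0.38 for C1qa, 0.26 for C1qc and -0.11 for C1qb, were those without untreated replicate 6. Without untreated replicate 7 all 3 chains were called higher by edgeR, at log2 fold changes of 1.55 for C1qa (adjusted p = 0.000388), 1.38 for C1qb (adjusted p = 0.000423) and 1.59 for C1qc (adjusted p = 5.26e-05). In that fit 17.0% of all features were called higher, and 3 of 9 members. With replicate 7 as the only untreated library, C1qb was called lower at -0.74 (edgeR adjusted p = 0.000791). C1qc was at -0.36 (edgeR adjusted p = 0.0521) and C1qa at -0.15 (edgeR adjusted p = 0.52) in that fit, where 3.36% of features were called lower. The lone untreated library is assumed there to vary like the AAV9-LMNA ones.

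Upstream sequences of the coexpressed chains are shown for the 2 of them in the RefSeq promoter table (GRCm38.p6). Each is the 250 bases before the RefSeq start, 5′ to 3′ on the gene's strand. C1qb is chr4:136886201-136886450 and C1qc is chr4:136892915-136893164, both minus strand. The C1qc gene in GENCODE M21 reaches chr4:136893065, so most of the printed C1qc stretch lies inside it. The C1qb stretch lies before its gene. Capitals mark matches of the motifs searched.
C1qb: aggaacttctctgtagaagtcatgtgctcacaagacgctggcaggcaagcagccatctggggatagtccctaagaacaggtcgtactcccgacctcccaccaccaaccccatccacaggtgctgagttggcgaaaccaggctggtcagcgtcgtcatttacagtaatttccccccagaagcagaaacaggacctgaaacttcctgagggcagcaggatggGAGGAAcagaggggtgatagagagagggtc
C1qc: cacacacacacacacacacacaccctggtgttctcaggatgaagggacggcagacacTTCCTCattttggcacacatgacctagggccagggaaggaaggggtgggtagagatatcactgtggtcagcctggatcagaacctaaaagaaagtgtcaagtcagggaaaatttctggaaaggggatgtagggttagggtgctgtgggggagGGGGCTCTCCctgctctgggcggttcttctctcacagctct
Searched on both strands over 300 bases, from 250 before to 50 after the start, were GAGGAA (a core of ETS factors such as PU.1, the macrophage regulator), TTCNNNGAA (the interferon-gamma activated element, the same on both strands), GAAANNGAA (an interferon response element core), TATAAA and the NF-kappa-B consensus. GAGGAA stood at bases 221 to 226 of the C1qb window, and its reverse complement TTCCTC at bases 58 to 63 of the C1qc window. An NF-kappa-B match stood at bases 210 to 219 of C1qc, inside the gene as GENCODE places it. Of all 32851 windows in the table, 28.3% held GAGGAA and 8.46% an NF-kappa-B match, and in the windows described here no matches of different motifs overlapped. Neither chain's window held TTCNNNGAA, found in 8.30% of windows, or GAAANNGAA, found in 8.56%.

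**Figure D1:**
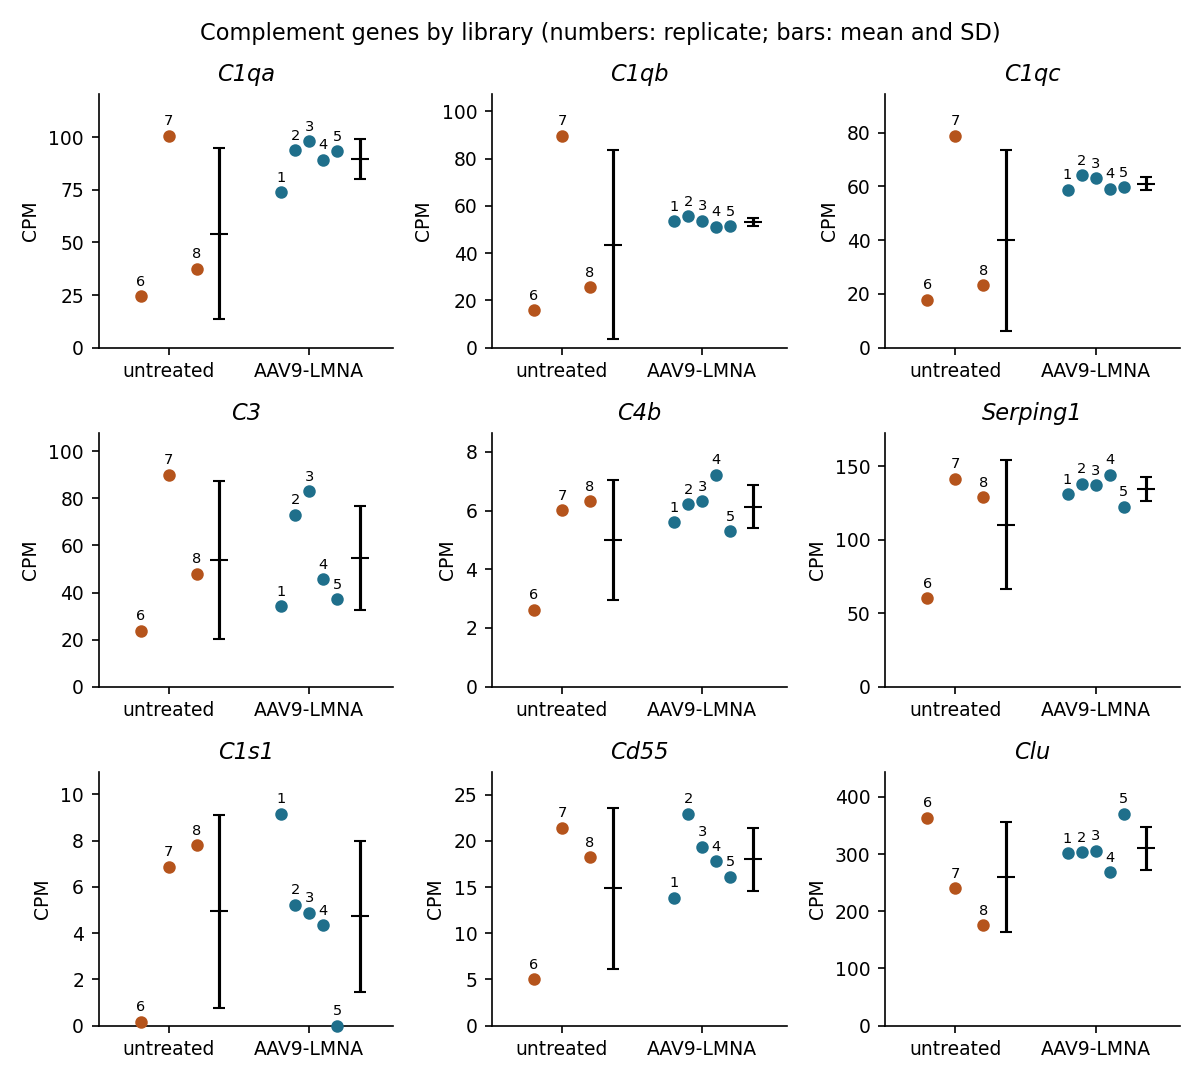
CPM of each of the 9 complement genes (y axis, from 0) in the 3 untreated libraries (orange, replicates 6 to 8) and the 5 AAV9-LMNA libraries (blue, replicates 1 to 5), with bars for the mean and SD of each group. For the C1q chains, replicate 7 lies above and replicates 6 and 8 lie below the cluster of AAV9-LMNA points, and C1s1 is near 0 in replicates 6 and 5.

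Because the chains assemble into 1 protein, their proportions were compared within each library on a per-length scale, counts per kilobase of exon, which does not depend on library scaling. C1qa made up 49.8, 44.0 and 50.4% of the C1q signal in untreated replicates 6, 7 and 8, and 47.1, 51.7, 53.5, 52.5 and 53.4% in AAV9-LMNA replicates 1 to 5. The C1qb share was 30.7, 37.5 and 32.8% untreated and 32.7, 29.3, 28.0, 28.8 and 28.2% with the vector. The C1qc share was 19.5, 18.6 and 16.8% untreated and 20.2, 19.0, 18.5, 18.7 and 18.4% with the vector. The proportions varied far less than the levels, and the groups overlapped for each chain. They depend on the lengths used: over the longest transcript in place of all exons, C1qc averaged 26.4 and 27.3% in untreated and AAV9-LMNA libraries.

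The mean C1qa share was 48.1 ± 3.56% (SD, n = 3) untreated and 51.6 ± 2.65% (SD, n = 5) with the vector (exact permutation test, two-sided, p = 0.161, adjusted over 3 chains 0.241). The C1qb share was 33.6 ± 3.47% (SD, n = 3) and 29.4 ± 1.91% (SD, n = 5), with an exact permutation p of 0.0536, adjusted 0.161. The C1qc share was 18.3 ± 1.36% (SD, n = 3) and 19.0 ± 0.737% (SD, n = 5), with an exact permutation p of 0.429. With 56 splits the smallest p possible is 0.0179. Leaving out AAV9-LMNA replicate 1 took C1qa (4.69 percentage points higher) and C1qb (-5.06) past the threshold, both at an adjusted exact permutation p of 0.0429. With a library left out there are fewer splits, so the smallest p possible is above 0.0179. The shares of a library sum to a whole, so the shifts of C1qa and C1qb are not independent.

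C1q followed the summed CPM of the macrophage markers from library to library, though not every marker did so. The 3 chains summed to 58.1, 269 and 86.1 CPM in untreated replicates 6, 7 and 8, and to 186, 214, 215, 199.6 and 204 CPM in AAV9-LMNA replicates 1 to 5. A list of 20 macrophage markers summed to 236, 776 and 392 CPM untreated and to 643, 734, 740, 729 and 698 CPM with the vector. Both sums were lowest in untreated replicate 6, next lowest in 8 and highest in 7. The ratio of C1q to markers averaged 0.271 ± 0.067 (SD, n = 3) untreated and 0.288 ± 0.0078 (SD, n = 5) with the vector, and the groups' ranges, 0.220 to 0.347 and 0.274 to 0.293, overlapped.

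None of the 20 macrophage markers was called by edgeR. Their median log2 fold change was 0.82, and 17 were above 0. Those below 0 were Lyve1 (-0.38), Mertk (-0.20) and Cd163 (-0.20). Mertk did not follow C1q, at 26.8, 22.9 and 28.2 CPM in untreated replicates 6, 7 and 8, so lowest in replicate 7. Lyz2, the lysozyme of myeloid cells, was at 1.02 (edgeR adjusted p = 0.212), and Mrc1, the mannose receptor of tissue macrophages, at 0.50 (edgeR adjusted p = 0.211). Fewer macrophages and less RNA per macrophage cannot be told apart in bulk tissue, and the part of macrophage number in the C1q values was not tested. By Pearson's r of log2 CPM over the 8 libraries, among 11862 coding genes, the genes most like C1qa were Fcer1g (0.998), Lyz2 (0.997) and Vav1 (0.996). Those most like C1qb were Pirb (0.992), Cd52 (0.991) and Itgb2 (0.989), and those most like C1qc were Tada3 (0.994), Rab33b (0.993) and Coro1a (0.990). Fcer1g, Vav1, Pirb, Cd52, Itgb2 and Coro1a are expressed in blood cells, and Fcer1g and Lyz2 are themselves on the marker list. The chains had r of 0.95 to 0.98 with each other. These coefficients are descriptions that rest largely on the 3 spread-out untreated libraries.

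**Figure D2:**
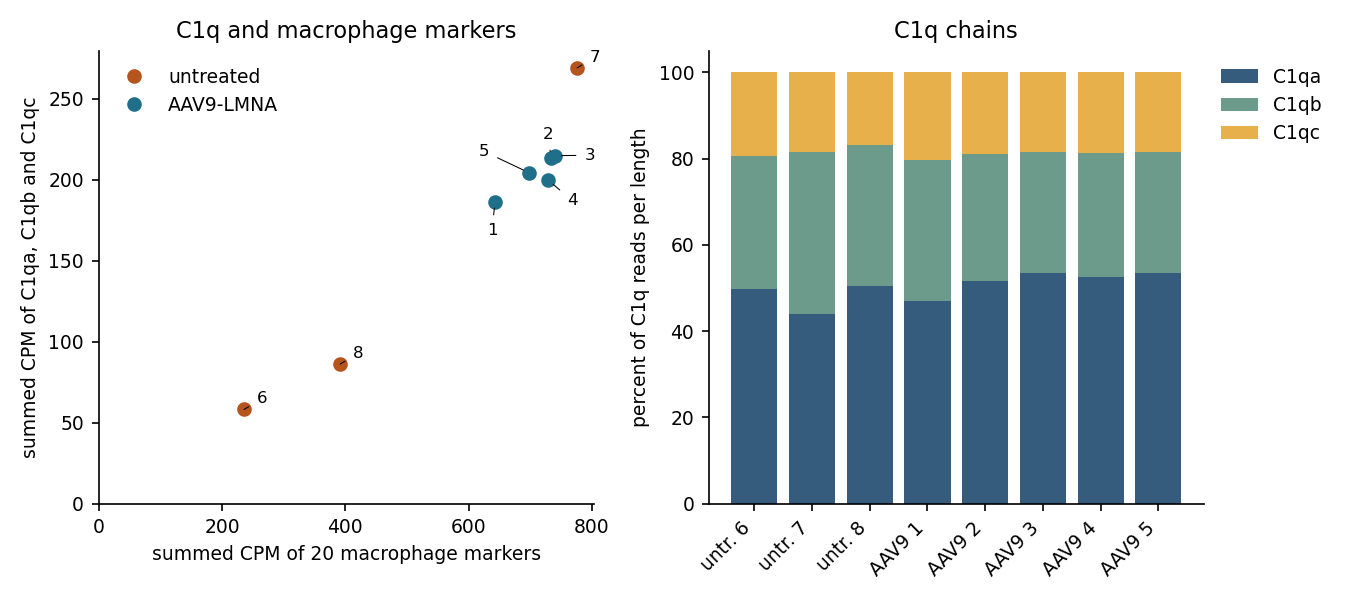
Left, summed CPM of C1qa, C1qb and C1qc (y axis) against summed CPM of 20 macrophage markers (x axis), 1 point per library, numbered by replicate. Right, each chain's percentage of the C1q signal per exon length, by library; levels span 58.1 to 269 CPM while the C1qa share stays between 44.0 and 53.5%.

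C1s1 encodes the C1s protease that cleaves C4 and C2, and it showed a pattern unlike the C1q it works with. It lies at chr6:124530345-124542359 (minus strand). C1s1 measured 0.164, 6.87 and 7.81 CPM in untreated replicates 6, 7 and 8, which are 4, 161 and 172 counts. It measured 9.16, 5.23, 4.89 and 4.34 CPM in AAV9-LMNA replicates 1 to 4, and 0 counts were found in replicate 5, where 3 counts, the limit that a count of 0 allows, come to 0.136 CPM. Such limits cover counting error only. Each group thus held 1 library near 0, and the other 6 libraries lay between 4.34 and 9.16 CPM. The log2 fold change was -0.06 (SE 1.18, 95% interval -2.82 to 2.69, edgeR adjusted p = 0.972), and -0.62 without untreated replicate 6.

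The genes around C1s1 were then looked at, a choice made after its values were seen. C1r and C1s genes form a cluster in the order C1rl, C1ra, C1s1, C1rb and C1s2, in which mice carry a C1ra and C1rb pair and a C1s1 and C1s2 pair. C1rl, a C1r-like protease, measured 0.738, 1.92 and 1.13 CPM untreated and 1.12, 2.73, 3.04, 3.05 and 4.71 CPM with the vector. C1ra, the C1r protease that activates C1s, measured 0.615, 10.02 and 9.21 CPM untreated and 8.13, 6.29, 6.45, 5.11 and 0.996 CPM with the vector. C1rb ran the other way, at 2.91, 0.554 and 0.545 CPM untreated and 0.280, 3.79, 2.99, 3.22 and 6.39 CPM with the vector. C1s2 measured 0.246, 0.768 and 1.82 CPM untreated and 2.01, 1.74, 0.806, 1.16 and 0.136 CPM with the vector.

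Untreated replicate 6 and AAV9-LMNA replicate 5 were the lowest of the 8 libraries for C1ra, C1s1 and C1s2, while replicate 5 was the highest for C1rb. Untreated replicates 7 and 8 and AAV9-LMNA replicate 1 were high for C1ra and C1s1 and low for C1rb. AAV9-LMNA replicates 2, 3 and 4 lay between for C1ra and C1s1, and above replicates 7, 8 and 1 for C1rb. This grouping crosses the treatment groups. C1rl did not share it in full, since it was highest in replicate 5 like C1rb but lowest in replicate 6. The nearby gene Lpcat3 did not share it, at 19.2, 24.4 and 44.0 CPM untreated and 37.1 to 42.3 CPM with the vector. C1ra was also the gene most like C1s1 (r = 0.979). Strain is given only as Mixed, and the genotype of the animals at this locus was not tested.

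Sequence shared between the pairs limits how well their reads can be assigned. Of the 50-base windows of the longest C1ra transcript, 48.0% were also found in C1rb, and 59.2% of those of C1rb were found in C1ra. For C1s1, 24.3% of windows were found in C1s2. C1s1 shares 576 exon bases, 18.4% of its exon length, with the antisense gene Gm16567, which had 0 counts in all libraries. Counting was without strand. The upstream sequences of these genes are shown because C1ra and C1rb moved apart between libraries. C1ra is chr6:124512371-124512620 (plus strand), C1rb is chr6:124570180-124570429 (plus strand) and C1s1 is chr6:124542360-124542609 (minus strand, the more upstream of 2 annotated starts). Each is the 250 bases before the start in the same RefSeq table. GENCODE M21 begins C1ra at chr6:124512405 and C1rb at chr6:124570294, ahead of these RefSeq starts. Most of both stretches therefore lies inside the genes as GENCODE places them, while the C1s1 stretch lies before its gene.
C1ra: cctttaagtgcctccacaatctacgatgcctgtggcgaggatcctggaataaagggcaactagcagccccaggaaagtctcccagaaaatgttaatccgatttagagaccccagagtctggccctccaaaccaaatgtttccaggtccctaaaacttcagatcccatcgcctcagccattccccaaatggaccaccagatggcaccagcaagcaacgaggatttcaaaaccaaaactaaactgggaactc
C1rb: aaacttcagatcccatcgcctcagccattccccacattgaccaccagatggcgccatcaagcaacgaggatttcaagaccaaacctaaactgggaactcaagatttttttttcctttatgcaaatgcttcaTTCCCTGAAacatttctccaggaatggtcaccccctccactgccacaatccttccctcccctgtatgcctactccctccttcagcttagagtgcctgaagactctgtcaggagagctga
C1s1: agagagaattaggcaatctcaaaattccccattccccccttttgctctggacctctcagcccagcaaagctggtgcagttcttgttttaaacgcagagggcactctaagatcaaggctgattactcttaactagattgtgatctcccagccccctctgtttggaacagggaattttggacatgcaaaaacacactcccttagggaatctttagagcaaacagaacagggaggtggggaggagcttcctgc
The capitals in C1rb mark a match of TTCNNNGAA at bases 132 to 140, inside the gene as GENCODE places it. The C1ra window held the same letters at bases 283 to 291 and TTCCTC at bases 295 to 300, after the RefSeq start and so not shown. The longest identical run between the C1ra and C1rb windows was 34 bases, at bases 152 to 185 of C1ra and 1 to 34 of C1rb. None of the motifs was found in the C1s1 window.

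**Figure D3:**
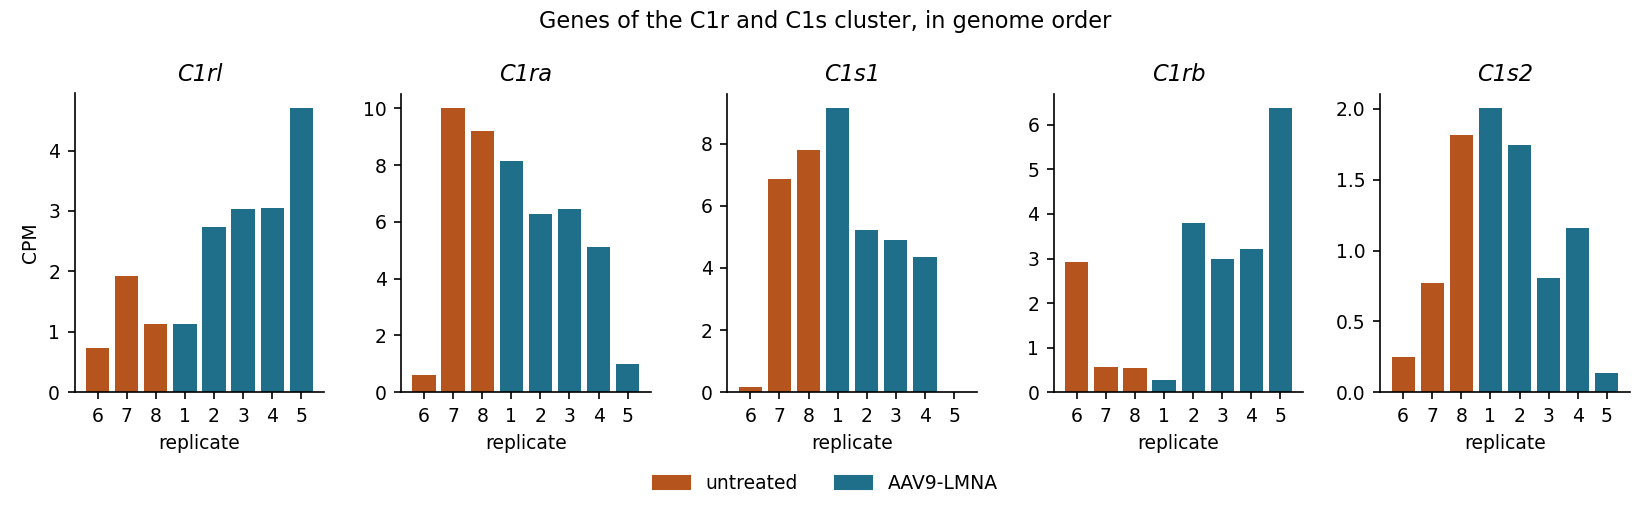
CPM (y axes from 0, each panel with its own scale) of the 5 genes of the C1r and C1s cluster in genome order, 1 bar per library, orange for untreated replicates 6, 7 and 8 and blue for AAV9-LMNA replicates 1 to 5. Replicates 6 and 5 are low for C1ra and C1s1, and replicate 5 is highest for C1rb at 6.39 CPM.

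C4b encodes C4, the substrate of C1s that carries the cascade from C1 to C3. It lies at chr17:34728380-34743882 (minus strand) and was lowly expressed, at 64 to 168 counts per library. C4b measured 2.62, 6.01 and 6.31 CPM untreated and 5.61, 6.21, 6.31, 7.21 and 5.30 CPM with the vector. All libraries but untreated replicate 6 lay between 5.30 and 7.21 CPM. The log2 fold change was 0.30 (SE 0.26, 95% interval -0.28 to 0.88, edgeR adjusted p = 0.406), and without replicate 6 it was 0.00. Of the 50-base windows of C4b, 35.2% were shared with its near copy C4a, so the split of reads between the pair is uncertain. C4a itself did not pass the filter, at no more than 0.656 CPM.

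C3 encodes the component on which all activation pathways converge, and lies at chr17:57203970-57228136 (minus strand). It measured 23.8, 90.0 and 48.0 CPM untreated and 34.3, 73.1, 82.9, 45.6 and 37.1 CPM with the vector. Here the AAV9-LMNA libraries were spread as well, with replicates 2 and 3 high and 1 and 5 low, so C3 did not share the tight level of C1q. The means were 53.9 ± 33.5 CPM (SD, n = 3) and 54.6 ± 22.03 CPM (SD, n = 5), and the log2 fold change was 0.02 (SE 0.46, 95% interval -1.03 to 1.07, edgeR adjusted p = 0.979). Leaving out single libraries gave -0.33 to 0.62, the lowest without untreated replicate 6. The genes most like C3 were Psip1, Sdc3 and Arf4, each at an r of 0.95. Its RefSeq window held TATAAA at bases 265 to 270, which lie after the annotated start. Somewhere in their length, 13.6% of windows held TATAAA.

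Serping1 encodes C1 inhibitor, which removes C1r and C1s from C1q, and lies at chr2:84765387-84775444 (minus strand). It measured 60.1, 142 and 129 CPM untreated and 131, 138, 137, 144 and 122 CPM with the vector. Untreated replicate 6 alone was low, and replicates 7 and 8 lay within the AAV9-LMNA range. The log2 fold change was 0.29 (SE 0.23, 95% interval -0.22 to 0.80, edgeR adjusted p = 0.361), and it was 0.00 without replicate 6.

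Cd55 encodes decay-accelerating factor, a membrane protein that takes apart C3 convertases, at chr1:130439027-130462744 (minus strand). It measured 5.00, 21.4 and 18.2 CPM untreated and 13.8, 22.9, 19.4, 17.8 and 16.1 CPM with the vector. Again only untreated replicate 6 lay outside the AAV9-LMNA range. The log2 fold change was 0.28 (SE 0.39, 95% interval -0.62 to 1.17, edgeR adjusted p = 0.62) and was -0.13 without replicate 6. The near copy Cd55b shares 10.7% of the 50-base windows of Cd55 and had 3 counts in all, and the antisense Gm16083, which overlaps 102 exon bases, had 0.

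Serping1, C4b and Cd55 varied together, with r of 0.94 to 0.98 over the 8 libraries, and their r with C1qa was 0.74 to 0.82. Genes most like Serping1 were Bhlhb9 (0.994), Rps6ka2 (0.993) and App (0.992). App was also among the genes most like C4b (0.985), beside Isoc1 (0.989) and Maf (0.988). Those most like Cd55 were Sept5 (0.994), Dse (0.992) and Lpar1 (0.989). Fibroblast markers were low in the same library as these 3 genes: Col3a1, a fibrillar collagen, measured 523 CPM in untreated replicate 6 and 2243 to 4122 CPM in the others. None of the 11 fibroblast markers was called by edgeR (median log2 fold change 0.47), and their part in the values of Serping1, C4b and Cd55 was not tested.

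Clu encodes clusterin, a secreted chaperone that blocks assembly of the membrane attack complex, at chr14:65968483-65981547 (plus strand). It was the exception among the 9, since untreated replicate 6 was the highest of its group. Clu measured 364, 240 and 176 CPM untreated and 302, 304, 306, 269 and 370 CPM with the vector. Replicates 7 and 8 lay below every AAV9-LMNA library and replicate 6 above all but replicate 5. The log2 fold change was 0.25 (SE 0.20, 95% interval -0.19 to 0.70, edgeR adjusted p = 0.356). Without untreated replicate 6, Clu was called higher at 0.59 (edgeR adjusted p = 0.0205), as were 7.31% of all features. The genes most like it were Chac1 (0.955), Fam160a1 (0.951) and Acin1 (0.940), and its r with the other members ran from -0.70 with C1s1 to 0.13 with C1qc.

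On the per-length scale, the order of levels in AAV9-LMNA hearts depended in part on the gene length chosen. Per kilobase of all annotated exons, Clu stood at 90.2 ± 10.8 CPM (SD, n = 5) and C1qa at 86.2 ± 9.03, within their spread, but per kilobase of the longest transcript Clu stood at 171 ± 20.5 and C1qa was unchanged. Serping1 followed at 57.9 ± 3.56 per kilobase of exon, or 76.2 ± 4.69 per kilobase of the longest transcript. C1qb stood at 48.9 ± 1.70 on both scales, while C1qc moved from 31.6 ± 1.25 to 50.7 ± 2.01, so their order was not settled. C3 (10.6 ± 4.28), Cd55 (3.71 ± 0.707), C1s1 (1.51 ± 1.04) and C4b (1.08 ± 0.130) came last on the exon scale, in this order on both, with C1s1 and C4b within their spread. In untreated hearts the SDs were so wide that few neighbours were apart, for example C1qa at 52.1 ± 39.1 and Serping1 at 47.4 ± 18.9 CPM per kilobase (SD, n = 3).

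The SD of log2 CPM was larger among untreated than among AAV9-LMNA libraries for 9 of 9 members, with medians of 1.03 and 0.16. This was common in these data: it held for 70.0% of all features tested and 78.6% of coding genes with a mean log2 CPM above 1. Untreated replicate 6 was the lowest of its group for 8 of 9 members, against 35.2% of all features and 51.1% of those coding genes. Replicate 7 was the highest for 6 of 9, against 33.1% and 44.4%. The groups differ in size, 3 against 5 libraries, and the difference in spread was not tested.

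**Figure D4:**
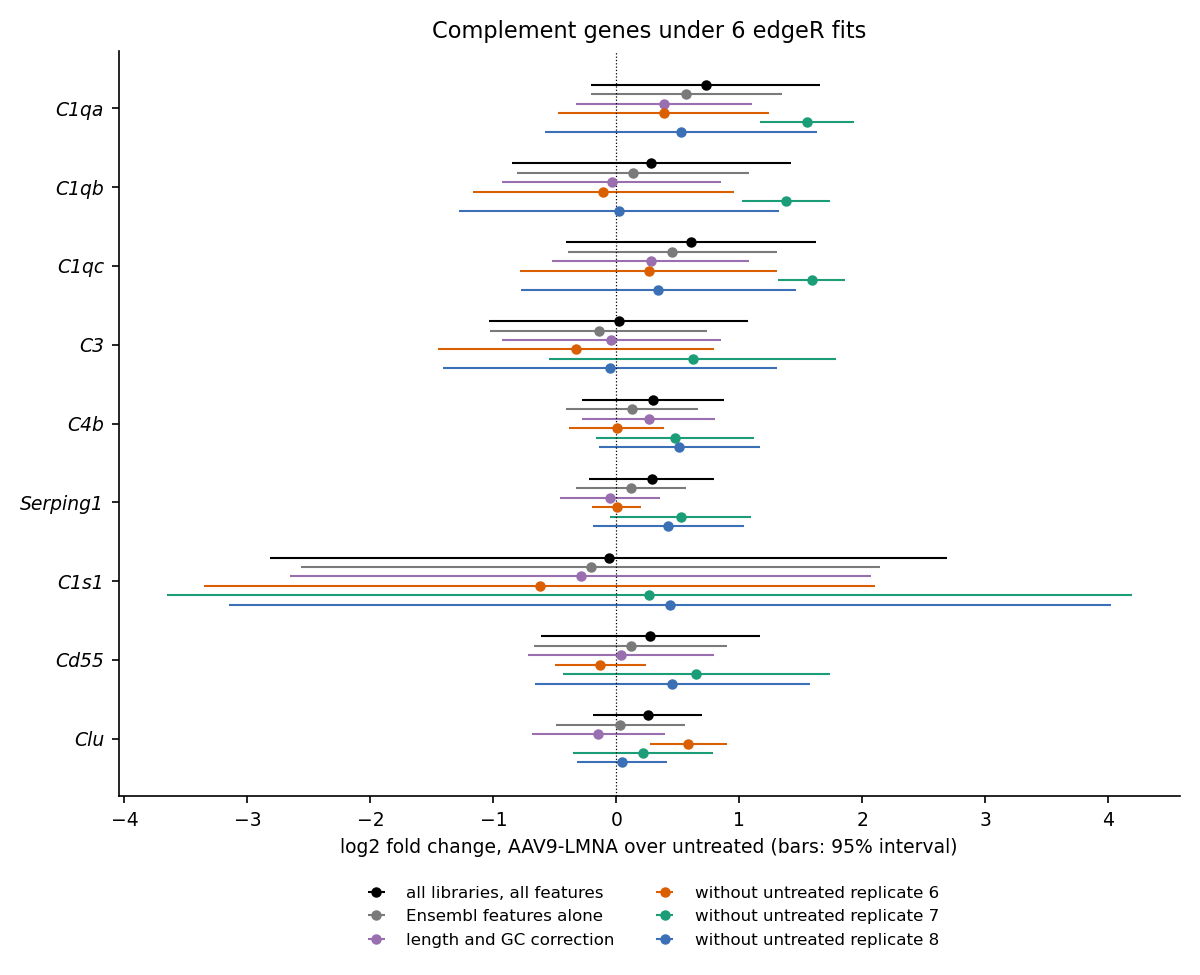
Log2 fold change of each complement gene, AAV9-LMNA over untreated (x axis, bars are 95% intervals), under 6 edgeR fits in different colours. Only the fits without replicate 7 for the C1q chains, and without replicate 6 for Clu, lie clear of the dotted line at 0.

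The fitted values depended in part on the scaling. Fitting Ensembl features alone shifted the median Ensembl log2 fold change by -0.19 relative to the reported fit, and a correction for transcript length and GC content shifted it by -0.26. The median over the members was then 0.12 and -0.04. Under that correction 326 features were called higher and 856 lower, of 15248, against 2843 and 4015 in the reported fit. The log2 fold changes of C1qb (-0.04), C3 (-0.04), Serping1 (-0.05) and Clu (-0.15) changed sign there, while C4b was at 0.26, close to its reported value. None of the 9 members was called by edgeR under either setting.

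The rest of the complement system also gave few calls, which does not show that differences were few. In simulated counts for 3 against 5 libraries, edgeR recovered 34.3% of 2-fold changes and 4.48% of 1.5-fold ones. Few features were changed there, and edgeR made 95 calls of 25813 features, against 6858 of 26717 in the reported fit. The adjusted threshold was therefore stricter in the simulation, which also gave both groups the same spread. These shares thus do not give the recovery in the reported fit, which was not measured. Of 46 other complement genes listed, 29 passed the filter, and edgeR called 0 higher and 1 lower, against 25.7% of all features called in either direction. At an unadjusted p under 0.05 there were 5, and DESeq2 and limma-voom each called 1. Without untreated replicate 7 edgeR called 6, in a fit where 4773 features were called higher and 5260 lower of 28153. The median log2 fold change of the 29 was 0.27, and 20 were above 0. The gene called in the reported fit was Masp2, a protease of the lectin pathway that cleaves C4 and C2. It measured 0.902, 0.725 and 1.04 CPM untreated and 0.561, 0.455, 0.237, 0.472 and 0.317 CPM with the vector, all below the untreated libraries. Its log2 fold change was -1.11 (edgeR adjusted p = 0.0396) on 109 counts in all. The call was lost without untreated replicate 6 or 8, without any one of AAV9-LMNA replicates 2 to 5, and with no filter on low counts (edgeR adjusted p = 0.0594 to 0.121), as well as without replicates 6 and 8 together (0.447). The log2 fold change in the former settings was -1.17 to -0.97, close to that of the reported fit, and in the latter -0.80.

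Among recognition molecules of the lectin pathway, Colec12, a scavenger receptor with a collectin domain, measured 18.2, 52.9 and 57.6 CPM untreated and 44.2 to 77.0 CPM with the vector. Colec11, a soluble collectin, measured 10.3, 13.7 and 23.6 CPM untreated and 17.3 to 36.8 CPM with the vector. Neither was called by edgeR (adjusted p = 0.298 and 0.232). Masp1, the partner protease of Masp2, was level at 8.28 to 16.6 CPM untreated and 9.87 to 15.7 CPM with the vector. The mannose-binding lectins were at or near 0, with 0 counts of Mbl1 in all libraries and 1 of Mbl2.

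Properdin (Cfp), which stabilises the alternative pathway convertase, was the only 1 of 3 alternative pathway genes to pass the filter, at 1.48 to 4.95 CPM untreated and 2.40 to 4.47 CPM with the vector. Factor B (Cfb) reached at most 0.189 CPM. Factor D (Cfd), known as adipsin for its source in fat cells, had 36 counts in all and was at 1.36 CPM in untreated replicate 8 and at most 0.086 CPM elsewhere. Of the terminal components, 2 of 7 passed, C7 and C8g. Hc, the gene of C5, had 9 counts in all, C6 had 10, and C8b and C9 had 0 in every library, where 3 counts come to 0.114 to 0.142 CPM. Of 9 liver markers, 7 did not pass the filter, among them Alb at no more than 0.14 CPM and Fgb at 0 counts. Of those that did, Ttr stood at 0.363 to 0.947 CPM and Ahsg at 14.5 to 22.6 CPM untreated and 3.04 to 8.55 CPM with the vector.

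Complement receptors were better represented, with 8 of 9 tested and 0 called by edgeR. Cd93, an endothelial and myeloid surface protein once described as a C1q receptor, measured 87.8, 128 and 148 CPM untreated and 135, 184, 174, 141 and 178 CPM with the vector (log2 fold change 0.42, edgeR adjusted p = 0.085). C3ar1, the receptor of the C3a fragment, measured 4.31, 14.8 and 9.12 CPM untreated and 16.6, 13.8, 11.6, 14.2 and 15.9 CPM with the vector (log2 fold change 0.62, edgeR adjusted p = 0.167). Itgb2, the beta chain of the iC3b receptors, measured 3.49, 18.5 and 5.17 CPM untreated and 10.7 to 13.9 CPM with the vector, the same enclosing pattern as C1q. C5ar1, the C5a receptor, measured 3.08, 12.2 and 5.13 CPM untreated and 5.26 to 6.87 CPM with the vector.

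Of the regulators, 8 of 13 were tested and 0 called by edgeR. Cr1l (Crry), a rodent membrane inhibitor of C3 convertases, measured 36.6, 44.9 and 43.9 CPM untreated and 44.8 to 49.9 CPM with the vector. Cd59a, which blocks the membrane attack complex, measured 55.1, 72.2 and 58.5 CPM untreated and 67.4 to 78.7 CPM with the vector (log2 fold change 0.27, edgeR adjusted p = 0.0881). Vtn, vitronectin, which binds terminal complexes, measured 21.4, 26.3 and 33.6 CPM untreated and 29.5 to 41.6 CPM with the vector (log2 fold change 0.40, edgeR adjusted p = 0.0883). Cr1l and Cd59a thus varied less between untreated libraries than the C1q chains or Cd55 did.

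Pathways known to induce complement genes were read in the same fit. Of 30 interferon-response genes tested, 12 were called higher and 0 lower by edgeR, against 10.6% of all features called higher, with a median log2 fold change of 0.92. Iigp1, an interferon-induced GTPase, measured 16.7, 36.9 and 12.1 CPM untreated and 54.0, 54.2, 43.2, 54.4 and 42.9 CPM with the vector, all above the untreated libraries (log2 fold change 1.18, edgeR adjusted p = 0.0294). Gbp3 (1.46), Irf1 (0.70) and Rsad2 (0.73) were also called higher, at edgeR adjusted p of 0.0499, 0.0413 and 0.0294. Of 13 acute phase genes tested, 0 were called higher and 1 lower, Il6ra, the interleukin-6 receptor (log2 fold change -0.63, edgeR adjusted p = 0.0163). Stat3, which signals below that receptor, was at 0.23 (edgeR adjusted p = 0.304). Whether these levels bear on the complement genes was not tested.

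Markers of other cells that make or receive complement were counted as well. Of 7 lymphocyte markers tested edgeR called 2 higher, among them Cd2, and 0 lower, the list summing to 1.56 to 6.87 CPM untreated and 5.67 to 11.9 CPM with the vector. None of 4 neutrophil markers tested was called (2.56 to 15.8 CPM summed untreated, 2.58 to 8.82 CPM with the vector), and Ly6g had 0 counts in all libraries. None of 9 mesothelial markers was called (19.9 to 51.3 CPM untreated, 24.6 to 56.1 CPM with the vector). Of 9 endothelial markers, Tie1 and Egfl7 were called higher and Flt1 lower. Of 8 heart muscle markers, Myl2 was called higher and Ttn lower. Over all features tested, 25.7% were called in either direction and 10.6% higher. The endothelial and heart muscle lists thus lay near the share for either direction. The liver marker Ahsg was called lower (log2 fold change -1.72, edgeR adjusted p = 0.00396), and no fat cell marker passed the filter.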

How the data were processed

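The authors deposited raw counts of reads per feature, whole numbers, 1 table for each of 8 heart libraries, over 53465 Ensembl and 87774 NONCODE features, without strand. Per the submitters' processing notes, TopHat2, HTSeq, limma and edgeR were used and the builds were GRCm38 and mm10, with no versions or roles. Libraries were made from total RNA with a TruSeq kit, per the labels' protocols. HTSeq's summary lines were kept out of library sizes; ambiguous reads, which overlap several features and are dropped, were 21.0 to 26.4%. Overlaps with NONCODE features were not checked. Symbols, coordinates and exon lengths came from GENCODE M21, which matched 53360 Ensembl identifiers.

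The test was edgeR 4.0.16 in R 4.3.3: filterByExpr, TMM over both feature kinds, robust quasi-likelihood fits with a group term, and Benjamini-Hochberg adjustment over 26717 features at 0.05. CPM used TMM library sizes. Likeness and spread used log2 CPM with a pseudocount of 0.5. Alternatives were DESeq2 1.42.0, limma-voom (limma 3.58.1), RLE size factors in edgeR, no filter, at least 1 CPM in 3 libraries, Ensembl features alone, a length and GC correction (loess span 0.5, as offsets), each library left out, and untreated replicates 6 and 8 left out together. Scripts were tested on simulated data. No 2 libraries were identical, and replicates differed by more than counting noise. Promoters came from the RefSeq table, where 5 of 9 members matched.

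Members and lists were chosen with earlier results of these data known. Named are all members, other complement genes that pass the filter, up to 4 called or 2 uncalled genes per marker list by highest mean CPM, and the 3 coding genes most like each member. The C1r and C1s neighbours, low or absent complement genes, untested markers, and further macrophage and heart muscle markers were named after their values were seen. The alternatives on chain shares and gene lengths were also chosen after seeing the data. Some genes that this rule names are not reported here, and the counts of their lists include them.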

Additional observations from a re-analysis of the deposited data

Results flagged for a closer look

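Among 38 groups of 5 AAV9-LMNA libraries checked for a library far from the others, 2 complement genes had one; chance flags about 1 group in 20. Colec11 measured 36.8 CPM in AAV9-LMNA replicate 3 and 17.3 to 21.5 CPM in the other 4, a gap of 0.784 of the whole range. C7 measured 0.543 CPM in AAV9-LMNA replicate 5 and 1.48 to 1.71 CPM in the other 4, a gap of 0.803 of the range. Replicate 5 is also the AAV9-LMNA library with 0 counts of C1s1.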

How the results depend on the processing

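No paired analysis was possible because the replicate numbers, 6 to 8 and 1 to 5, are not shared between the groups. Of the 9 members, 0 were called with RLE, DESeq2, limma-voom, no filter, 1 CPM in 3 libraries, Ensembl features alone or the length and GC correction. Leaving out 1 library gave 0 to 3 calls, with C1qa, C1qb and C1qc called without untreated replicate 7 and Clu without replicate 6; leaving out untreated replicates 6 and 8 together gave 1 (C1qb, lower). Of the other complement genes, 1 was called, no filter gave 5, and leaving out 1 library gave 0 to 6. The filter of 1 CPM in 3 libraries gave 0, but Masp2 did not pass it and so was not tested there.

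Across single libraries left out, log2 fold changes ran from 0.38 to 1.55 for C1qa, -0.11 to 1.38 for C1qb, 0.26 to 1.59 for C1qc, -0.33 to 0.62 for C3, -0.62 to 0.44 for C1s1, -0.13 to 0.65 for Cd55 and 0.05 to 0.59 for Clu. Without untreated replicates 6 and 8 the values were -0.15 for C1qa, -0.74 for C1qb, -0.36 for C1qc, -0.71 for C3, -0.06 for Serping1 and -0.24 for Cd55. The length and GC correction gave -0.04 for C1qb, -0.04 for C3, -0.05 for Serping1 and -0.15 for Clu. C3 was at -0.14 on Ensembl features alone and -0.03 with 1 CPM in 3 libraries. Chain share differences ran, over single libraries left out, from 1.51 to 4.73 percentage points for C1qa, -5.71 to -2.33 for C1qb and -0.0557 to 1.28 for C1qc. Levels per kilobase of the longest transcript, in place of all exons, moved beyond 1 SD for C1qc, Serping1, Cd55 and Clu. The causes of these changes were not tested, apart from the gene lengths.

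The 95% intervals of C1qa, C1qb, C1qc, C3, C1s1 and Cd55 reach past a rise of 2-fold, so a change of that size is not excluded. RNA counts do not measure complement protein that reaches the heart from plasma.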
